A study of Mus musculus with 13 samples.

Results

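The proteasome is the large protease that degrades proteins tagged with ubiquitin, and the genes described here encode its subunits and the factors that assemble it. They were chosen by name from 19938 measured mouse genes, as every symbol made of Psma, Psmb, Psmc, Psmd, Psme or Psmg and a digit, together with Pomp. The rule took 50 genes. Of these, 48 fall into 9 role classes, and 2 (Psmc3ip and Psme3ip1) are named only as partners of a proteasome protein and are given apart. Psme2b shared its only row with Psme2 and was not counted.

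The samples were primary mouse embryonic fibroblasts (MEF), cultured cells of embryonic connective tissue, with no genetic change or drug named. Dishes were either cooled by setting their incubator to 32°C (hypothermia) or kept at 37°C (normothermia). For each temperature 1 array was run at each of 0.5, 1, 2, 4, 8 and 18 h. A single array at 0 h, from cells kept at 37°C, started both time series, which gives 13 arrays. Each array received the combined RNA of 3 dishes, so the spread between dishes is not in the data, and the p-values below measure only the spread between arrays of different times.

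Each proteasome has a barrel, the 20S core, built from rings of alpha subunits that form its gate and rings of beta subunits, 3 kinds of which cut peptide bonds. A 19S regulatory particle caps the barrel and together they form the 26S proteasome. Its base holds a ring of ATPases that unfold substrates, its lid removes ubiquitin, and several of its non-ATPase subunits bind ubiquitin. In cells exposed to interferon, the cutting beta subunits are exchanged for immunoproteasome subunits, and activators of the PA28 and PA200 kinds can take the place of the cap. Genes of the 26S subunits are known to be controlled together by the transcription factor NRF1, encoded by Nfe2l1, which binds antioxidant response elements in their promoters.

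The core of this element, searched as TGACNNNGC on both strands, is shown because it is the element through which 26S genes are known to be co-regulated. Promoters from RefSeq (GRCm38.p6), each running from 250 bases before a transcription start to 50 after it, were matched by gene ID for 40 of the 48 genes (43 promoters). The core stood in 6 of the 43 (14.0%), those of Psmb5, Psmb6, Psmc6, Psmd12, Psme4 and Psmd9, and in 12.4% of all 32851 promoters of the table. CCAAT stood in 14 (32.6%, against 37.4% of all), TGACGTCA, the cyclic AMP response element, in 0 (against 1.79% of all) and GGGCGG, the letters of an SP1 site, in 25 (58.1%, against 35.7% of all). The bases before the start are printed below for the gene that passed the test (Psmb6), for the genes of highest divergence among those with a core (Psmd9 and Psmd12), and for Psmb5, added after its values were seen because it is a cutting subunit whose divergence was the lowest of the beta ring. Capitals mark the core, and positions count from 0 at the start of the transcript.
Psmb6, chr11:70525107-70525356, plus strand, core at -9: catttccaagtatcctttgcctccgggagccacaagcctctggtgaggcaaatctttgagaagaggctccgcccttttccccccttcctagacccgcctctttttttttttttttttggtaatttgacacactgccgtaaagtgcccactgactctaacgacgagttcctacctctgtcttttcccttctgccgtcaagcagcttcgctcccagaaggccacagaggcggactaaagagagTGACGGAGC
Psmd9, chr5:123227940-123228189, plus strand, core at -31: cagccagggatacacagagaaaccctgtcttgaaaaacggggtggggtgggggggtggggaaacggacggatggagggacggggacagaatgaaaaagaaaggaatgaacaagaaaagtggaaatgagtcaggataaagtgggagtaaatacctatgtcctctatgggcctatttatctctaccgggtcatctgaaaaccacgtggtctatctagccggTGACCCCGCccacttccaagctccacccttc
Psmd12, chr11:107479278-107479527, plus strand, core at -247, read on the other strand: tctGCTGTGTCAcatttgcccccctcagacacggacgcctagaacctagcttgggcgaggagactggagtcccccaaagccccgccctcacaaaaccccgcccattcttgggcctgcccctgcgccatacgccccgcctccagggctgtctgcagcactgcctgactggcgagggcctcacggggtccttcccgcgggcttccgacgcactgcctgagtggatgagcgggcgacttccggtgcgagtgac
Psmb5, chr14:54617996-54618245, minus strand, core at -47: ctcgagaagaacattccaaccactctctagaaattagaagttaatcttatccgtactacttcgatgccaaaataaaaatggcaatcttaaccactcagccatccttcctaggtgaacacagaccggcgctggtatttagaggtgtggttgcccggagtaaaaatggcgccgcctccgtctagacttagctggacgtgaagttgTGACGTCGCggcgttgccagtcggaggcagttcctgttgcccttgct
Of the beta ring, Psmb3, Psmb4, Psmb5 and Psmb6 were among the genes with a promoter, while Psmb1, Psmb2 and Psmb7 were not searched. Whether the core goes with the divergence was not tested. The core is a match of letters in a window and no measured binding site.

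Genes of the 26S proteasome stood higher at 32°C than at 37°C, by small amounts, from 2 h on. The divergence of the time series is the log2 difference between 32°C and 37°C fitted as a line from 0 at 0 h, per time point, so that a constant offset from 0.5 h on gives a positive value as well as a growing gap. It was positive for 31 of 31 subunits of the 26S proteasome among the 48 genes, and for 11 of the other 17 genes. The 31 leave out Psma8, a testis form of an alpha subunit that lay far below the median signal. They also leave out Sem1 and Adrm1, 26S subunits that the symbol rule does not take. The median divergence was 0.023 for the 31 subunits and 0.0034 for the other 17, against 0.0020 for all genes, of which 53.8% were positive. A single gene, Psmb6, passed limma's test with Benjamini-Hochberg adjustment over all genes, which called 1.17% of all genes higher and 1.66% lower. At an unadjusted p under 0.05, 14 of the 48 genes were higher and 0 lower, against 8.52% of all genes higher and 9.9% lower, and all 14 were among the 31 subunits. The 10866 genes above the median signal had a median divergence of -0.0026, and 46.1% were positive. In the mean of the 0.5, 1 and 2 h pairs 61.0% of them were positive. They were not matched to the 31 subunits in signal, and a part of signal strength in the result was not tested. With a separate 32°C term, which takes up a constant offset, the slopes differed in the positive direction for 28 of the 31 subunits (not Psma5, Psmb5 and Psmd2) and for 34 of the 48 genes, against 51.6% of all genes, and 0 of the 48 passed. In such cultures a change in RNA per cell and a change in the mix of cells cannot be told apart.

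**Figure D1:**
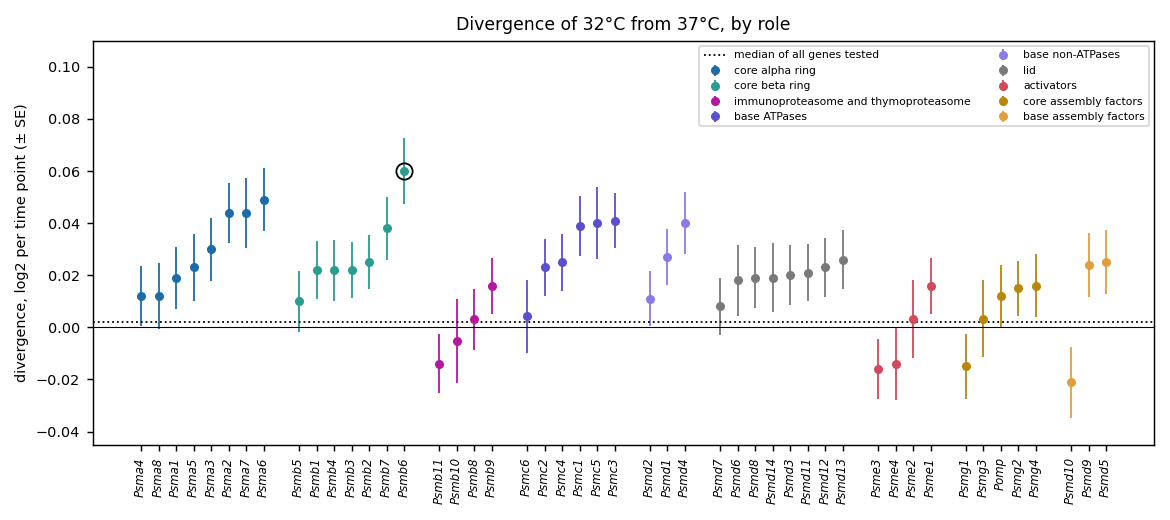
Divergence of each gene (log2 per time point, y axis) with its standard error, ordered by role class and value along the x axis; the ring marks the gene with an adjusted p under 0.05 and the dotted line the median of all genes. Points of the core, base and lid lie above 0, from 0.0042 for Psmc6 to 0.060 for Psmb6, while immunoproteasome, activator and assembly genes lie on both sides.

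The 6 matched pairs show when the difference was present. At 0.5 h the median difference of the 31 subunits (32°C minus 37°C, log2) was 0.065, with 22 of 31 higher, at a time when 58.4% of all genes were higher. At 1 h it was -0.013 and 13 of 31 were higher, against 49.2% of all genes. At 2 h it was 0.14 and 31 of 31 were higher, against 51.7%. That pair took in the other classes too, since 45 of all 48 genes were higher in it. At 4 h it was 0.054 with 30 of 31 higher, against 48.1% of all genes. At 8 h it was 0.14 with 29 of 31 higher, against 47.5%, and at 18 h it was 0.17 with 31 of 31 higher, against 54.6%. From 2 h on the 31 subunits were thus nearly all on the same side. The share of all genes stayed between 47.5% and 54.6% over these times. Of the 10866 genes above the median signal, 6284 were higher at 0.5 h, 6858 at 1 h and 6248 at 2 h. At 4, 8 and 18 h 4955, 4963 and 4591 of them were higher.

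Measured from the shared 0 h array, the median of the 31 subunits at 32°C was -0.056 at 1 h and 0.098, 0.047, 0.097 and 0.11 at 2, 4, 8 and 18 h. At 37°C it lay between -0.055 and -0.019 at every later time. The difference between temperatures was therefore made of values above the start at 32°C and slightly below it at 37°C. All changes from the start rest on that single array.

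**Figure D2:**
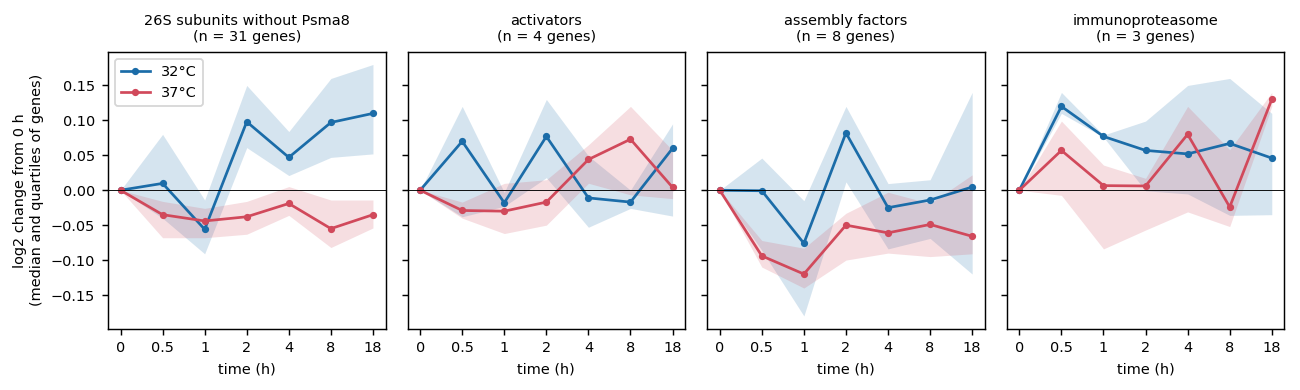
Median log2 change from 0 h (y axis) with the quartiles of the genes as bands, over time (x axis, time points equally spaced), at 32°C in blue and 37°C in red. The 26S subunits separate from 2 h on, reaching 0.11 at 32°C and -0.035 at 37°C at 18 h. The median of the assembly factors is also higher at 32°C at every time after 0 h, at 0.0046 against -0.066 at 18 h. The lines of the activators and of the immunoproteasome genes cross.

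The late effect, the mean difference of the 4, 8 and 18 h pairs, was positive for 31 of 31 subunits, between 0.026 and 0.26 log2, with a median of 0.11, and for 9 of the other 17 genes, with a median of 0.0075. Over all genes the median was 0.0099 and 53.5% were positive. The 3 late arrays at 32°C all lay above the 3 at 37°C for 25 of the 31 subunits and for Psmb9 among the others, against 10.3% of all genes. They all lay below for 2 genes, Psmb11 and Psmd10, against 12.9% of all genes. All 6 pairs were higher for 11 of the 31 subunits and for the assembly factor Psmd5, against 4.79% of all genes. No gene of the 48 passed limma's test of the late effect (lowest adjusted p = 0.109), which called 0.802% of all genes higher and 2.15% lower. At an unadjusted p under 0.05, 10 were higher and 0 lower, against 7.62% of all genes higher and 2157 of 19938 lower.

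The remaining limma tests called 0 of the 48 genes. The mean over all 6 pairs called 0.0702% of all genes, its lowest adjusted p among the 48 was 0.152, and 14 of the 48 were higher at an unadjusted p under 0.05, against 7.13% of all genes; 42 had a positive value, against 53.6%. The early effect, the mean of the 0.5, 1 and 2 h pairs, called 0% of all genes, and 3 of the 48 were higher at an unadjusted p under 0.05, against 4.18%; 39 were positive, against 53.5%. The trend with time at 32°C called 0.0953% of all genes, and 39 of the 48 were positive, against 56.6%. At an unadjusted p under 0.05, 10 of the 48 were higher and 1 lower, against 7.14% of all genes higher and 1864 of 19938 lower. The trend at 37°C called 0% of all genes, and 2 of the 48 were higher at an unadjusted p under 0.05, against 3.62%; 21 were positive, against 55.7%.

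**Figure D3:**
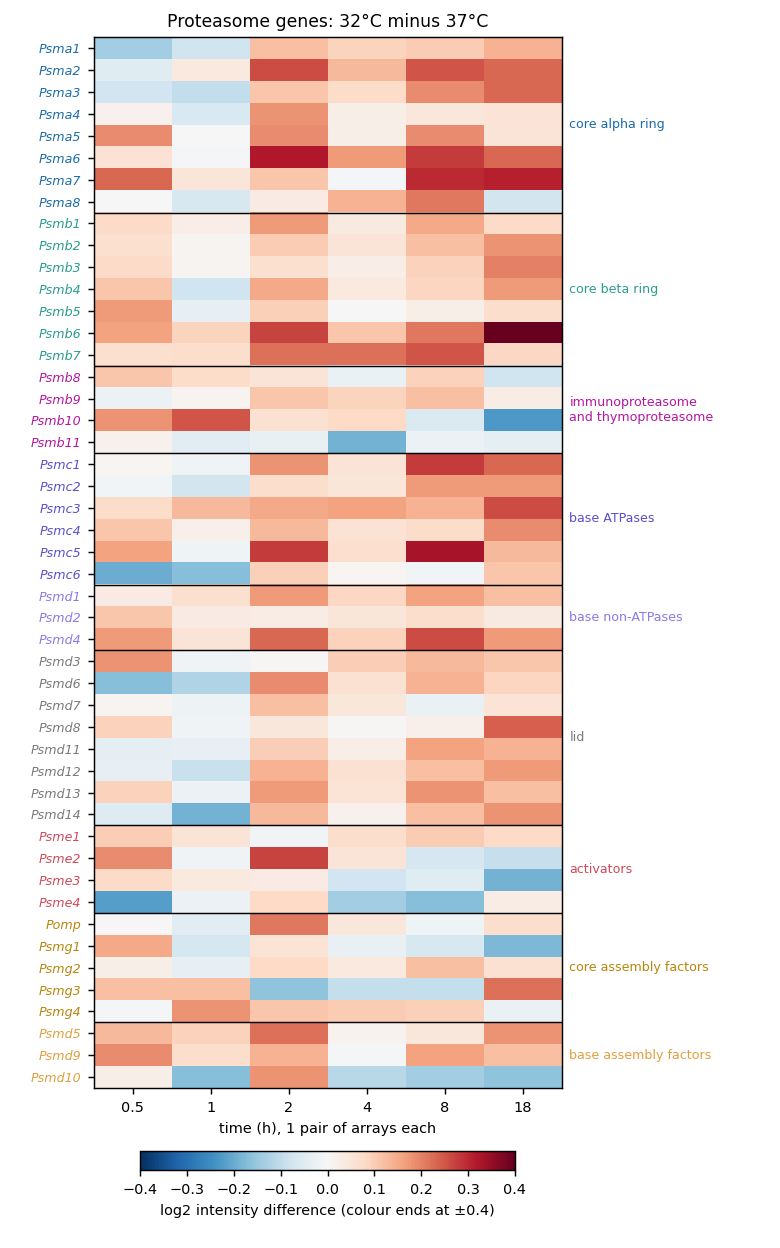
Log2 difference between 32°C and 37°C (colour) for the 48 genes (rows, by role class) at 6 times (columns, time in h), 1 pair of arrays each. The 2, 8 and 18 h columns are red for nearly all genes of the core, base and lid, the 1 h column is mixed with 22 of 48 genes higher, and Psmb6 at 18 h is the darkest cell at 0.47.

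Alpha subunits form the outer rings of the core. Their median divergence was 0.030 without Psma8, and 7 of 7 were positive. Psma6 had the highest value, 0.049 ± 0.0122 (SE, adjusted p = 0.0582 by limma). Its intensity at 37°C was 2713 at 0 h and then 2580, 2598, 2572, 2635, 2568 and 2656. At 32°C it was 2688, 2584, 3206, 2955, 3113 and 3125 at the same 6 times. The first 2 values at 32°C lay among those at 37°C, and the 4 from 2 h on lay above every value at 37°C. The late fold was 1.17, from a log2 difference of 0.23 ± 0.0567 (SD, n = 3 pairs).

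Psma2, the other alpha subunit with a late difference over 0.2 log2 and no overlap, had the same shape. Its intensity at 37°C was 1797, 1802, 1706, 1723, 1775, 1723 and 1738 from 0 to 18 h. At 32°C it was 1743 and 1752 at 0.5 and 1 h, and 2062, 1946, 2046 and 2046 from 2 h on. Again only the 4 later arrays stood apart from the control series, with a late log2 difference of 0.20 ± 0.0635 (SD, n = 3 pairs) and an adjusted p of 0.0705 for its divergence of 0.044 in limma. Psma7 had a like divergence of 0.044 with another course, 0.23 higher at 0.5 h, -0.0049 at 4 h and 0.31 at 18 h.

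Psma4 and Psma8 were the lowest of the ring in divergence. Psma4 had 0.012 ± 0.0115 (SE). Its intensity lay between 1845 and 1924 at 37°C (median 1902) and between 1821 and 2184 at 32°C (median 1926), the highest being the 2 h array, and the series overlapped. Psma8, which replaces a ubiquitous alpha subunit in testis, had intensities from 31.4 to 36.7 at 37°C and from 34.8 to 41.7 at 32°C, far below the array medians, with a divergence of 0.012 ± 0.0127 (SE).

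Beta subunits form the inner rings. Their median divergence was 0.022, 7 of 7 were positive, and 5 of 7 were higher in all 6 pairs, against 4.79% of all genes. Psmb6, which encodes the beta 1 subunit that cuts after acidic residues, was the gene of the 48 that passed the test. Its gene record spans chr11:70525324-70527858 (GRCm38.p6), which begins before the transcript start used for the printed promoter, so the marked core lies within the gene record. Its intensity at 37°C was 2125, 2034, 2011, 1964, 2125, 2043 and 2077 from 0 to 18 h. At 32°C it was 2278, 2138, 2371, 2301, 2363 and 2868 from 0.5 to 18 h. All 6 arrays at 32°C lay above all 7 at 37°C, and the 18 h array stood highest, 1.38-fold above its pair.

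The divergence of Psmb6 was 0.060 ± 0.0126 (SE, adjusted p = 0.0358 by limma), and its late fold was 1.2 (log2 difference 0.26 ± 0.181, SD, n = 3 pairs). The call was lost when the pair at 0.5, 2, 4, 8 or 18 h was left out (adjusted p = 0.0541, 0.0654, 0.0629, 0.109 and 0.175 by limma) and kept without 1 h (adjusted p = 0.0429). It was also lost on within-array ranks (adjusted p = 0.112) and when a separate term for 32°C was fitted beside the divergence (0.049 per time point, adjusted p = 0.498).

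The other cutting subunits differed in size. Psmb7, the beta 2 subunit with trypsin-like activity, had an intensity of 1435 to 1533 at 37°C (median 1498) and of 1506 to 1807 at 32°C (median 1650), with its highest values at 2, 4 and 8 h and a divergence of 0.038 (adjusted p = 0.117 by limma). Psmb5, the beta 5 subunit with chymotrypsin-like activity, lay between 5640 and 5858 at 37°C (median 5794) and between 5598 and 6338 at 32°C (median 5989). Its series overlapped, with a divergence of 0.010 ± 0.0117 (SE) and a late log2 difference of 0.031 ± 0.0352 (SD, n = 3 pairs). The 4 non-cutting beta genes, Psmb1, Psmb2, Psmb3 and Psmb4, had divergences between 0.022 and 0.025.

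The immunoproteasome genes replace these 3 subunits position by position, Psmb9 for beta 1, Psmb10 for beta 2 and Psmb8 for beta 5. Psmb11 belongs to the thymus form. Their median divergence was -0.0010 and 2 of 4 were positive. Psmb9 had the highest, 0.016 ± 0.0107 (SE), with intensities of 201 to 224 at 37°C (median 222) and 212 to 240 at 32°C (median 225). Its 3 late arrays at 32°C (239, 240 and 228) lay just above those at 37°C (224, 222 and 223).

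Psmb11 had the lowest, -0.014 ± 0.0113 (SE), at 53.9 to 70.3 at 37°C and 57.5 to 63.3 at 32°C, below the array medians of 145 to 150. Psmb8 also lay below these medians, at 92.7 to 103 at 37°C and 97.3 to 106 at 32°C, with a divergence of 0.0031. Psmb10, named after its values were seen, was higher at 32°C in 4 of 6 pairs, with a divergence of -0.0052. Its differences were 0.18, 0.25, 0.062 and 0.079 from 0.5 to 4 h, -0.059 at 8 h and -0.23 at 18 h. At 18 h Psmb10 read 314 at 32°C and 367 at 37°C, the highest value of its 37°C series. With a separate 32°C term its slope differed by -0.083 per time point between temperatures, at an unadjusted p of 0.00894 and an adjusted p of 0.226 in limma.

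Whether a cutting subunit and its immunoproteasome counterpart differed in their response was tested over the 6 pairs, by an exact permutation test that exchanged the temperatures within pairs (2-sided, smallest possible p = 0.0312, 3 comparisons chosen after the values were seen). Psmb6 exceeded Psmb9 in its difference in 6 of 6 pairs, by 0.16 ± 0.146 log2 (SD), with an exact p of 0.0312, the smallest possible, and an adjusted p of 0.0938. Psmb7 exceeded Psmb10 in 4 of 6 pairs, by 0.10 ± 0.207 (exact p = 0.25, adjusted p = 0.375). Psmb5 exceeded Psmb8 in 4 of 6 pairs, by 0.017 ± 0.0914 (exact p = 0.656, adjusted p = 0.656). That comparison sets a bright gene against Psmb8, which lay below the array medians. After adjustment 0 of the 3 passed, and a lone comparison at the smallest possible p cannot pass among 3.

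**Figure D4:**
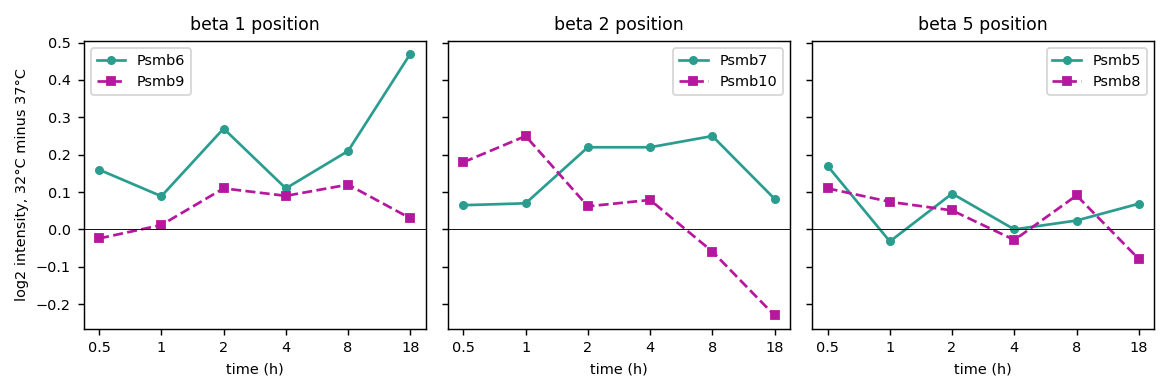
Log2 difference between 32°C and 37°C (y axis) at 6 times (x axis, h) for each cutting subunit of the core (circles) and its immunoproteasome counterpart (squares), 1 pair of arrays per point. At beta 1 the core gene lies above its counterpart at every time, at beta 2 the lines cross between 1 and 2 h, and at beta 5 they cross repeatedly.

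In the base, the ATPases pull substrates into the core. Their median divergence was 0.032 and 6 of 6 were positive. For 5 of 6 the late arrays at 32°C all lay above those at 37°C, against 10.3% of all genes. Psmc3 had the highest, 0.041 ± 0.0105 (SE, adjusted p = 0.0651 by limma). Its intensity at 37°C was 916 at 0 h and then 895, 852, 912, 880, 913 and 908, and at 32°C it was 941, 932, 1015, 987, 1006 and 1087. Every array at 32°C lay above every array at 37°C, and the late log2 difference was 0.19 ± 0.0634 (SD, n = 3 pairs).

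Psmc6 had the lowest, 0.0042 ± 0.0139 (SE), at 1961 to 2053 at 37°C (median 1994) and 1703 to 2144 at 32°C (median 1999). Its arrays at 32°C were the lowest of all at 0.5 and 1 h (1703 and 1824) and the highest at 2 and 18 h (2129 and 2144). The remaining ATPases had divergences of 0.023 (Psmc2), 0.025 (Psmc4), 0.039 (Psmc1) and 0.040 (Psmc5).

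The base also holds non-ATPase subunits, of which Psmd1 and Psmd2 are scaffolds and Psmd4 is a ubiquitin receptor. All 3 were higher in 6 of 6 pairs, against 4.79% of all genes. Their late arrays at 32°C all lay above those at 37°C, against 10.3% of all genes. Psmd4 had the highest divergence, 0.040 ± 0.012 (SE, adjusted p = 0.104 by limma), at 934 to 1027 at 37°C (median 993) and 1031 to 1157 at 32°C (median 1109), without overlap at any time. Psmd2 had the lowest, 0.011 ± 0.0106 (SE), at 4875 to 5065 at 37°C (median 4964) and 5052 to 5421 at 32°C (median 5111), so that its series touched only at the 0 h array.

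The lid holds the deubiquitinase Psmd14 and its partners. Its median divergence was 0.020 and 8 of 8 genes were positive, within a narrow range from 0.0081 to 0.026. At 1 h 0 of 8 were higher, and at 2, 4 and 18 h 8 of 8 were. Psmd13 had the highest value, 0.026 ± 0.0113 (SE), at 1797 to 1871 at 37°C (median 1824) and 1768 to 2088 at 32°C (median 1952). Its 1 h array at 32°C was the lowest of all, and its other arrays at 32°C lay above the range at 37°C. Psmd7 had the lowest, 0.0081 ± 0.0109 (SE), at 2375 to 2550 at 37°C and 2392 to 2589 at 32°C, and its series overlapped.

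**Figure D5:**
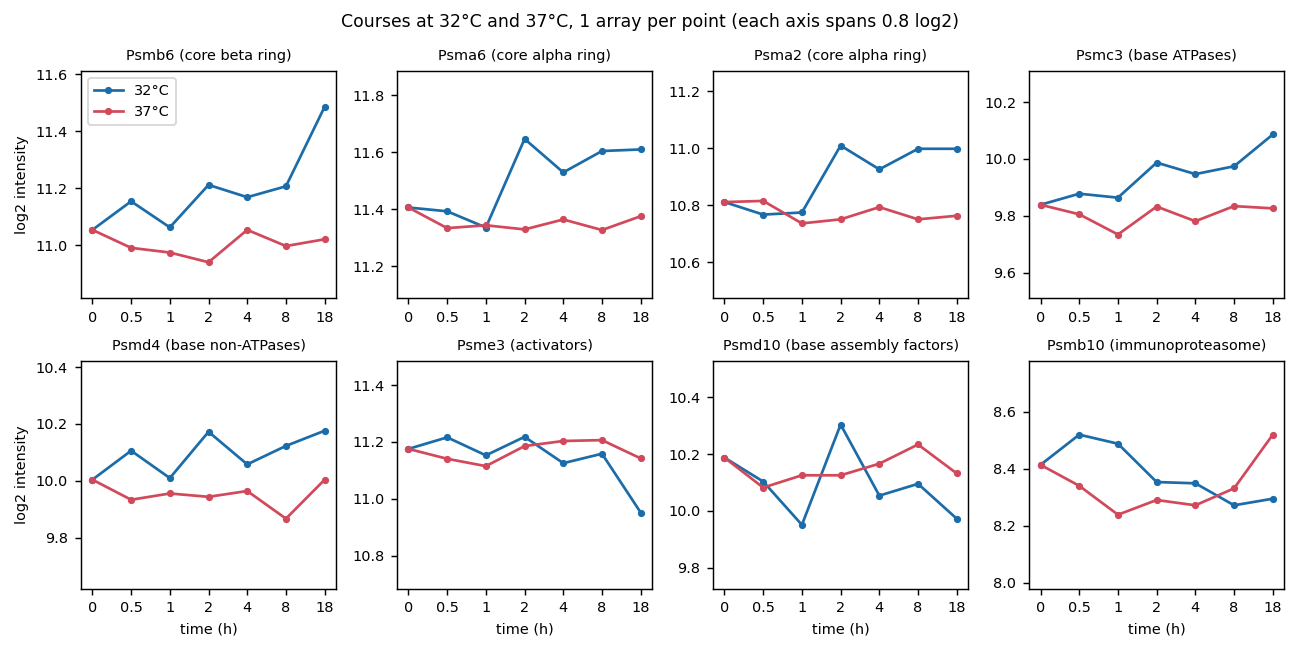
Log2 intensity (y axis, each spanning 0.8) over time (x axis, h, time points equally spaced) for 8 genes at 32°C in blue and 37°C in red, 1 array per point, with the 0 h array shared. Psmb6, Psmc3 and Psmd4 stay above the control series throughout and Psma6 and Psma2 from 2 h on, whereas Psme3, Psmd10 and Psmb10 end below it at 18 h.

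Activators bind the ends of the core in place of the 19S cap. Of 4 measured, 2 had a positive divergence and 1 a positive late effect, with medians of -0.0052 and -0.064. Psme1, a PA28 subunit induced by interferon, had the highest divergence, 0.016 ± 0.0107 (SE), at 1070 to 1174 at 37°C and 1119 to 1246 at 32°C. Psme3, which encodes the nuclear PA28 gamma, had the lowest, -0.016 ± 0.0115 (SE).

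The intensity of Psme3 at 37°C was 2313 at 0 h and then 2258, 2218, 2329, 2358, 2363 and 2260, and at 32°C it was 2379, 2277, 2382, 2234, 2286 and 1981. It was thus higher at 32°C in the 3 early pairs and lower in the 3 late ones. Psme4, the PA200 gene, had a late log2 difference of -0.093, and Psme2, the partner of Psme1, of -0.036. The row that Psme2b shares with Psme2 gave a divergence of -0.0065, while the row of Psme2 alone gave 0.0032.

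Assembly factors guide the subunits into place and leave the finished particle. Of the 5 core factors, 4 had a positive divergence (median 0.012). Psmg4 had the highest, 0.016 ± 0.012 (SE), at 304 to 338 at 37°C and 312 to 361 at 32°C. Psmg1 had the lowest, -0.015 ± 0.0123 (SE), at 546 to 656 at 37°C and 535 to 672 at 32°C, and both pairs of series overlapped. Pomp, which helps the core close, had a divergence of 0.012 and a late log2 difference of 0.033 ± 0.0445 (SD, n = 3 pairs).

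Of the 3 factors of the base, Psmd5 had a divergence of 0.025 ± 0.0123 (SE), with intensities of 1960 to 2185 at 37°C and 2084 to 2287 at 32°C, and was higher in 6 of 6 pairs. Psmd10, known as gankyrin, had the lowest divergence of the 48 genes, -0.021 ± 0.0136 (SE, adjusted p = 0.461 by limma). Its late arrays read 1149, 1204 and 1122 at 37°C and 1063, 1094 and 1005 at 32°C, without overlap, a fold of 0.91 (log2 difference -0.14 ± 0.0239, SD, n = 3 pairs). Its 2 h array at 32°C was the highest of the gene, at 1264. Of the 2 genes named after partners, Psmc3ip, which acts in meiotic recombination, had a divergence of 0.0073 and Psme3ip1 of 0.013.

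A steady order along time was counted by Kendall's tau over the 7 arrays of each series, with a 1-sided p under 0.05 as the rule. The p is exact for series without ties, where it asks for a tau of at least 0.619. At 32°C 10 of the 48 genes passed upward, against 8.82% of all genes, among them 7 of the 31 subunits (Psma3, Psmb6, Psmc2, Psmc3, Psmd4, Psmd8 and Psmd14). The dim Psma8 was counted with tied values at a tau of 0.571, for which the p is not exact. Psmb10 passed downward, with a tau of -0.714, against 8.44% of all genes. At 37°C 3 passed upward, against 4.99%, and 3 downward, against 3.3%. Psmb11 and Psmd8 passed upward at both temperatures. With 7 arrays 0 genes of the whole table passed after adjustment in either series.

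For the 5 genes with more than 1 row of their own on the array, the rows gave the same sign. The 3 rows of Psma3 had divergences of 0.030, 0.029 and 0.037, the 2 of Psma5 0.023 and 0.031, of Psmb3 0.022 and 0.034, of Psmc1 0.039 and 0.056, and of Psmd2 0.011 and 0.011. Dimmer rows were thus level with the brightest row or above it in divergence, except for 1 row of Psma3.

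Partners of the proteasome were listed by function. Of 16 measured proteasome-associated proteins (19 listed), 12 had a positive divergence, against 53.8% of all genes. At an unadjusted p under 0.05 by limma, 3 were higher and 2 lower, against 8.52% and 9.9% of all genes. The test called 1 of the 16 higher, against 1.17% of all genes. This was Psmf1, which encodes PI31, a regulator that binds the core. Its intensity at 37°C was 1131 at 0 h and then 1141, 1038, 1070, 1024, 1073 and 1211, and at 32°C it was 1147, 1128, 1087, 1207, 1351 and 1539. It was higher in 6 of 6 pairs, with the widest gaps from 4 h on. The divergence of Psmf1 was 0.055 ± 0.0113 (SE, adjusted p = 0.0344 by limma), its trend at 32°C alone did not pass (adjusted p = 0.144 by limma), and its late fold was 1.24 (adjusted p = 0.0356 by limma). The divergence call was lost without the 0.5, 4, 8 or 18 h pair (adjusted p = 0.0517, 0.101, 0.171 and 0.128 by limma), on ranks (adjusted p = 0.0751) and with a separate 32°C term (adjusted p = 0.27). The lowest of that list was Ubqln4, a ubiquitin shuttle, at -0.057 (adjusted p = 0.0687 by limma), whose late arrays read 508 to 539 at 32°C and 648 to 674 at 37°C. Sem1, a lid subunit outside the symbol rule, was also in that list. It had a divergence of 0.013 and a late log2 difference of 0.035, and was higher at 32°C in 4 of 6 pairs. Adrm1, a further subunit outside the rule, was not measured on a row of its own.

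Of 11 measured genes of NRF1 and its processing (12 listed), 8 had a positive divergence and 0 passed limma's test, with 2 higher and 0 lower at an unadjusted p under 0.05. Over all genes 53.8% were positive, 8.52% higher and 9.9% lower at that p. Nfe2l1 itself had a divergence of 0.0051 (adjusted p = 0.859 by limma), with intensities of 1832 to 2083 at 37°C and 1988 to 2035 at 32°C, and its series overlapped. Nfe2l2, its relative NRF2, was lower at 32°C in all 6 pairs, with a divergence of -0.022 (adjusted p = 0.328 by limma). The list ran from Syvn1, a ubiquitin ligase of the endoplasmic reticulum, at -0.037 to Maff, a small MAF partner, at 0.030. Of 6 ubiquitin and E1 genes listed, Uba6 was measured on a row of its own, at -0.044.

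Of 7 measured genes of antigen presentation and interferon (10 listed), 2 had a positive divergence, against 53.8% of all genes. Irf1, a transcription factor that induces immunoproteasome genes in the interferon response, passed the test in the lower direction, as did 1.66% of all genes. Its late arrays read 387, 372 and 455 at 37°C and 249, 272 and 324 at 32°C. The divergence of Irf1 was -0.097 (adjusted p = 0.0184 by limma), its trend at 32°C alone did not pass (adjusted p = 0.219 by limma), and its late fold was 0.695 (adjusted p = 0.0324 by limma). The call rests on its brighter row: the mean of its 2 rows gave -0.045 (adjusted p = 0.0722 by limma). It was also lost without the 4, 8 or 18 h pair (adjusted p = 0.0587, 0.099 and 0.0638 by limma), without the time block (adjusted p = 0.067), on ranks (adjusted p = 0.0622) and with a separate 32°C term (adjusted p = 0.207). Tap2, a peptide transporter subunit, was the highest of the list at 0.016.

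The labels were checked against markers. All 11 fibroblast markers lay above the median signal, and Cirbp, a gene induced by cold, had a late fold of 2.99 (adjusted p = 0.00599 by limma). Rbm3, the other cold-induced gene checked, had a late fold of 1.07 (adjusted p = 0.467 by limma). Of 7 measured leukocyte markers (8 listed) only Cd68 lay above it, and of 4 endothelial and 5 epithelial markers 0 and 1 (Krt19) did. In the late arrays the summed intensity of the leukocyte list was 569 to 600 at 37°C and 626 to 727 at 32°C, and that of the fibroblast list 54245 to 55668 and 50456 to 52345. Both lists thus moved with temperature in the same arrays as the 26S subunits, and 0 of their genes passed limma's divergence test, with 2 leukocyte markers higher and 4 fibroblast markers lower at an unadjusted p under 0.05, against 8.52% of all genes higher and 9.9% lower. Their part in the result was not tested.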

How the data were processed

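RNA of 13 pools of primary mouse embryonic fibroblasts was hybridised to Affymetrix Mouse Gene 1.0 ST arrays, 1 per time point and temperature. The authors deposited intensity values on a linear scale, from 4.24 to 18146.4, for 28853 transcript clusters. Neither labels nor methods state how these values were summarised and normalised from the probes. Array medians ran from 145.0 to 149.8, a spread of 0.0463 log2, and no further scaling was made. Clusters were named from the platform annotation (21789 with 1 symbol, 1621 with several, 5443 unlisted, the last 2 not used), symbols were updated through RefSeq (21698 matched), and the brightest row stood for each of 19938 genes.

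Log2 intensities were fitted with limma 3.58.1 (R 4.3.3) over all genes, with Benjamini-Hochberg adjustment at 0.05 and the time point as a block. The divergence was the coefficient of 32°C times the order of the time point (0 to 6). The code for this fit was also run on simulated data. The outcome of that run is not given here, and no conclusion about differences as small as those reported is drawn from it. Other normalizations, an offset, a filter on dim genes, other rows per gene, other models and leaving out each time point were tried as alternatives. The genes and lists were chosen with earlier results of these data known. Courses were given for genes past the threshold, for the highest and lowest divergence of each role class, and for genes whose late arrays did not overlap at a late difference over 0.2 log2. Of each partner list the called genes and the highest and lowest were named. The number of arrays limits the precision.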

Additional observations from a re-analysis of the deposited data

Results flagged for a closer look

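Psme3, the gene of the activator PA28 gamma, stood out because its 3 early pairs were all higher at 32°C and its 3 late pairs all lower. The early log2 difference was 0.049 ± 0.0234 (SD, n = 3 pairs) and the late one -0.11 ± 0.0747. The change from early to late was -0.15 log2, with an unadjusted p of 0.101 and an adjusted p of 0.526 in limma, a test added after the values were seen, which called 0 genes of the whole table.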

How the results depend on the processing

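The count of called genes in the divergence test moved with the processing. It was 1 as reported, 2 after quantile normalization and 4 with 16 added before the log2. The count was 4 when only the 10866 genes above the median signal were tested, and 6 without the time block. It was 0 on within-array ranks, 0 with a separate 32°C term and 0 without the 0.5, 2, 4, 8 or 18 h pair. Leaving out the 1 h pair kept 1. The test as reported called 1.17% of all genes higher and 1.66% lower, and that with a separate 32°C term called 4 genes of the whole table. For the other alternatives the share of all genes called is not given, so their counts cannot be read as particular to these genes. The cause of these changes in count was not tested. The median divergence of the 48 genes stayed positive in every alternative on the log2 scale, from 0.016 with a separate 32°C term to 0.023 without 4 h, and the number with a positive value went from 34 to 42. The late median lay between 0.078 and 0.12 and the late test called 0 genes in all its alternatives. The early effect leaned on the 2 h pair, without which 29 genes were positive in place of 39. The median trend at 37°C, -0.00078, turned to 0.0065 without the 0 h array, and 32 genes had a positive value in place of 21. The data cannot separate a dish or array effect at 1 time from a response, since each pair has 1 array per temperature. Dim genes such as Psma8, Psmb8 and Psmb11 are limited by background.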
